A study of Caenorhabditis elegans with 4 samples.

Results

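The regions described are the H3K36me3 peaks of Caenorhabditis elegans chromosome IV outside its piRNA regions. A peak belongs here if its midpoint lies below 4.5 Mb (the left end), between 7 and 13.5 Mb (the middle block) or above 17.2 Mb (the right end), in WormBase WS190 coordinates. By this rule replicate 1 has 783 members of 5973 peaks in all, and replicate 7 has 814 of 6223. The rule uses position alone. The remaining 207 and 216 peaks of chromosome IV lie in the piRNA regions, from 4.5 to 7 Mb and from 13.5 to 17.2 Mb, and serve as the nearest comparison.

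The peaks come from chromatin immunoprecipitation and sequencing of whole worms of the N2 laboratory strain at the L3 larval stage. Both immunoprecipitations, numbered 1 and 7 in the labels, used the same Abcam antibody against H3K36me3, and the labels give no mutation and no treatment other than crosslinking in 1% formaldehyde for 10 minutes. The labels name a separate input DNA sample as the control of each, so that the series has 4 samples in 2 groups. Whole worms mix germ line and somatic tissues, and a peak does not say in which of them the mark lay. Whether these were separate cultures is not in the labels, so every SD below gives the spread between 2 samples, which may be technical.

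H3K36me3 is histone H3 trimethylated at lysine 36. It is laid down over gene bodies as RNA polymerase II transcribes them, by the methyltransferase MET-1 in this worm, and is also maintained in the germ line by MES-4, which can mark genes that were active there earlier. Chromosome IV carries most piRNA genes of the worm in its piRNA regions, where each piRNA gene is a tiny transcription unit of its own, interspersed with ordinary genes. Centres of the autosomes are rich in conserved and widely expressed genes, and their arms in repeats and in faster-evolving gene families. No WS190 gene map was used here, so genes under the peaks are not named and no sequences are shown.

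Outside the piRNA regions the mark covered 21.0% of the sequence in replicate 1 and 19.8% in replicate 7. In the middle block the lists gave nearly the same picture, with 21.8% of the block under peaks in replicate 1 and 21.5% in replicate 7 (mean 21.6% ± 0.206, SD, n = 2). In the left end they did not, with 20.2% in replicate 1 and 17.7% in replicate 7 (mean 18.9% ± 1.75, SD, n = 2). The left end was therefore below the middle block in both lists, at 0.926 of its cover in replicate 1 and 0.823 in replicate 7. As replicate 7 minus replicate 1, the lists differed by -2.48 percentage points in the left end and by -0.292 in the middle block. With 2 lists of 1 group an exact sign test cannot go below a two-sided p of 0.5, so the blocks are compared by their values and no test is given.

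Peak density did not follow cover. The left end had 316 peaks in replicate 1 and 350 in replicate 7, or 70.2 and 77.8 peaks per Mb. The middle block had 452 and 451 peaks, or 69.5 and 69.4 per Mb. The left end was thus at least as dense in peaks as the middle block in both lists, with a ratio of 1.01 in replicate 1 and 1.12 in replicate 7. The replicate with the lower cover of the left end had the more peaks there. When peaks at most 500 bp apart were joined, the densities of the blocks came to 49.3 and 54.3 per Mb in replicate 1 and to 52.4 and 52.3 per Mb in replicate 7, so that the ratio turned to 0.908 and 1.00. With the upper 50% of each list by score it was 0.841 and 0.681.

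**Figure D1:**
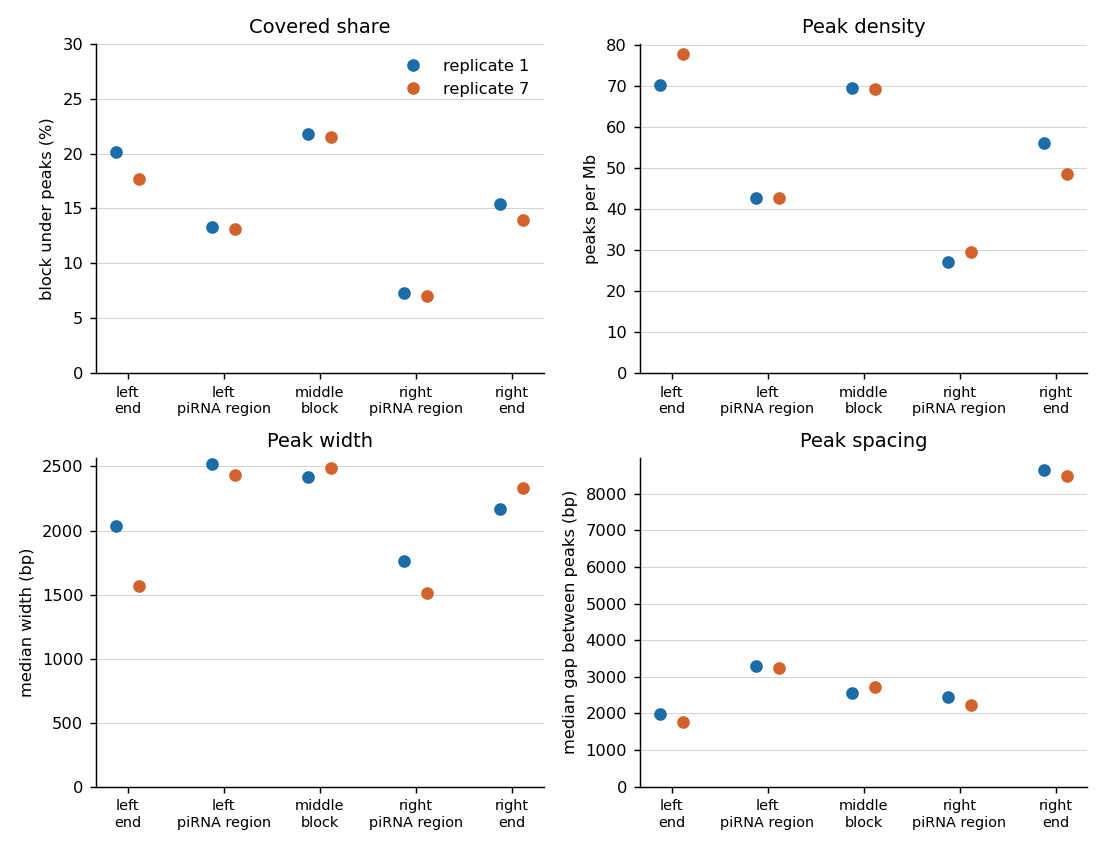
Covered share (percent), peak density (peaks per Mb), median peak width (bp) and median gap between neighbouring peaks (bp) in the 5 stretches of chromosome IV. Each point is 1 peak list; the left end shows replicate 7 below replicate 1 in cover and width and above it in density, whereas the points of the middle block lie close together in all 4 plots.

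Both piRNA regions were sparser. The region from 4.5 to 7 Mb had 13.3% and 13.2% of its length under peaks and 42.8 peaks per Mb in each list. The region from 13.5 to 17.2 Mb had 7.27% and 6.99%, with 27.0 and 29.5 peaks per Mb. The left end and the middle block exceeded both piRNA regions in cover and density in each list. Their values were nearer to those of the autosomes other than IV than to those of the piRNA regions. These autosomes had 21.1% and 20.001% of their length under peaks and 67.0 and 70.7 peaks per Mb. The left end in replicate 7 was the farthest from them, at 17.7% and 77.8 peaks per Mb.

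Median widths of the peaks as called separated the blocks more than cover or number did. The median peak of the left end measured 2036.5 bp in replicate 1, where the middle 50% of peaks spanned 1227 to 3665 bp. Its replicate 7 counterpart measured 1567 bp (1178 to 2734.5 bp). The medians of the middle block were 2414 bp (1640.5 to 3984 bp) and 2487 bp (1667 to 3944.5 bp). The median width of the left end was 0.844 of that of the middle block in replicate 1 and 0.630 in replicate 7. On every other chromosome the median was also lower in the first 4.5 Mb than between 7 and 13.5 Mb, in both lists. On chromosome I the medians were 1900.5 and 2672.5 bp in replicate 1 and 1541 and 2618 bp in replicate 7. On chromosome III they were closer, at 2149 and 2368.5 bp and at 1821 and 2171.5 bp. The autosomes other than IV had medians of 2371 and 2132.5 bp, so that the left end lay below and the middle block above that value in both lists. The piRNA region to the right of the middle block had narrower peaks than the left end, with medians of 1762.5 and 1510 bp. The piRNA region to its left had medians of 2518 and 2432 bp. Among the upper 50% of each list by score the widths of the blocks were close, at ratios of 1.001 and 0.941. With peaks at most 500 bp apart joined, the ratio of median widths was 0.944 in replicate 1 and 0.739 in replicate 7. The ratio of cover was then 0.932 and 0.832, and that of density 0.908 and 1.00. Width thus separated the blocks least in replicate 1 after joining, and most in replicate 7.

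Compared with the middle block, the left end had a larger share of narrow peaks and a smaller share of wide ones. Peaks under 1500 bp made up 36.7% of the left end in replicate 1 (116 peaks) and 45.1% in replicate 7 (158 peaks), against 20.6% (93 peaks) and 20.4% (92 peaks) of the middle block. The piRNA region to the right of the middle block had a still larger share of such peaks, at 39.0% and 49.5%. The piRNA region to its left had 25.2% and 23.4%. Peaks wider than 5 kb made up 12.03% of the left end in replicate 1 (38 peaks) and 6.57% in replicate 7 (23 peaks), against 16.4% (74 peaks) and 13.3% (60 peaks) of the middle block. Peaks wider than 10 kb were few in both, at 6 and 3 in the left end and 7 and 6 in the middle block. The widest 10% of the peaks held 30.4% and 29.0% of all peak width in the left end, and 26.7% and 25.6% in the middle block. When only peaks of 1500 bp or more were kept, a threshold chosen after the widths had been seen, the left end had fewer peaks per Mb than the middle block in both lists (0.805 and 0.773 of its density). The ratio of median widths was then 1.09 in replicate 1 and 0.875 in replicate 7, and a filter on width itself narrows such a difference.

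**Figure D2:**
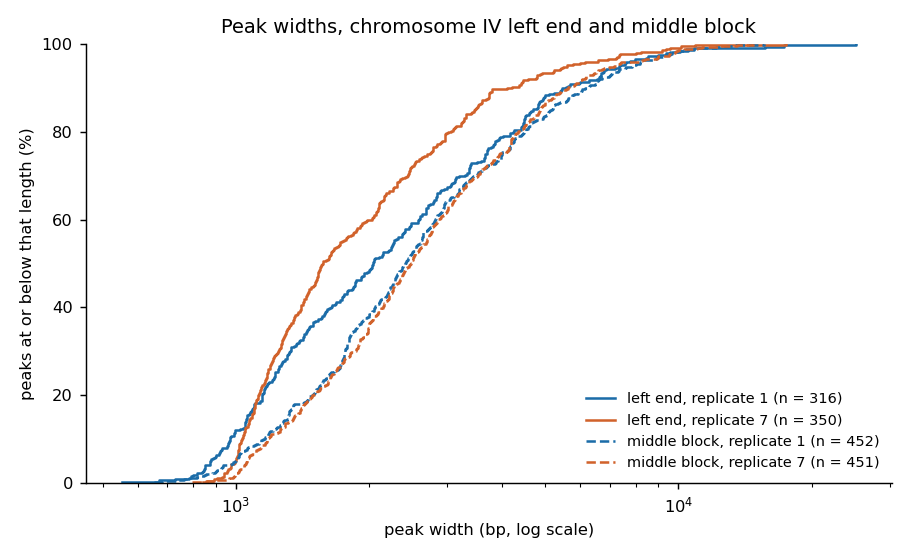
Cumulative share of peaks (percent) by peak width (bp, log scale) for the left end (solid) and the middle block (dashed) in each list. The dashed curves of the middle block nearly coincide, while the left end lies to their left, most so in replicate 7, whose median was 1567 bp.

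The authors' peak scores, whose scale the files do not explain and which rank peaks within a list only, were lower in the left end. Its median peak stood at percentile 41.2 of the scores of replicate 1 and at percentile 38.1 of replicate 7, whereas the median peak of the middle block stood at percentiles 53.7 and 57.5. The piRNA region to the right of the middle block was about as low as the left end, at percentiles 39.8 and 38.2. The piRNA region to its left stood at 52.6 and 56.0. Scores of 3100 or more, where the scale saturates, were held by 11.1% and 6% of left-end peaks and by 18.6% and 15.5% of middle-block peaks. Score and width go together in these lists, so each list was divided into 5 classes of 20% of its peaks by score. In the lowest class and the one just above it, left-end peaks were narrower than middle-block peaks in both lists. Medians of the lowest class were 1029 and 1163 bp in replicate 1 and 1073.5 and 1155 bp in replicate 7. Those of the class above it were 1532 and 1714 bp in replicate 1 and 1409.5 and 1769 bp in replicate 7. The next classes up went in different directions in the lists, with medians of 2534.5 against 2262 bp and 3817 against 3190.5 bp in replicate 1, and of 2100 against 2239 bp and 2968 against 3020 bp in replicate 7. In the highest class the left-end peaks were wider in replicate 1 (6259 against 5212 bp) and slightly narrower in replicate 7 (4768 against 4880 bp).

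The spacing of peaks was uneven in both blocks, with short gaps inside groups of peaks and long gaps between groups. The median gap between neighbouring peaks of the left end was 1982 bp in the first list and 1759 bp in the second (replicates 1 and 7), and that of the middle block was 2566 and 2710 bp. Mean gaps were several times as long and almost equal between the blocks, at 11305 and 10524 bp in the left end and 11242 and 11309 bp in the middle block. Gaps under 500 bp made up 29.8% and 32.7% of those of the left end and 21.5% and 24.4% of those of the middle block. The shorter median gap of the left end turned round with the upper 50% of each list by score, where it was 1.07 and 1.84 times that of the middle block. Gaps over 20 kb were a minority of gaps, 53 and 52 in the left end and 88 and 88 in the middle block, yet they took up 59.7% and 60.5% of the left end and 56.5% and 57.0% of the middle block. In the piRNA regions such gaps took up 71.4% and 73.4% of the region from 4.5 to 7 Mb and 87.7% and 87.2% of that from 13.5 to 17.2 Mb.

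**Figure D3:**
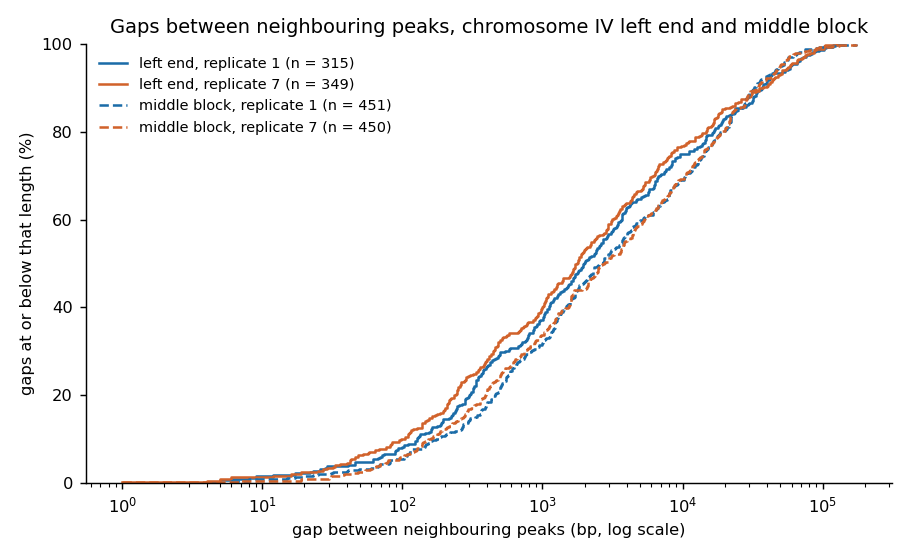
Cumulative share of gaps between neighbouring peaks (percent) by gap length (bp, log scale) for the left end (solid) and the middle block (dashed) in each list. The left-end curves run above those of the middle block from about the shortest gaps to beyond the medians of 1982 and 1759 bp. Upper quartiles were 10337.5 and 8297 bp in the left end against 14330.5 and 13967 bp in the middle block. All 4 curves meet among the long gaps.

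Peaks separated by at most 5 kb, a distance chosen after the gaps had been seen, formed islands. The left end had 112 islands in replicate 1 and 118 in replicate 7, or 24.9 and 26.2 per Mb, with a median length of 6614 and 5921 bp. The middle block had 182 and 187, or 28.0 and 28.8 per Mb, with a median length of 7811 and 7497 bp. An island held a mean of 2.82 and 2.97 peaks in the left end and of 2.48 and 2.41 peaks in the middle block. In both lists the left end thus had fewer islands per Mb than the middle block, and these were shorter at the median and held more and narrower peaks. The longest island was 53.9 and 53.7 kb in the left end and 57.4 kb in the middle block in each list.

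Cover along the blocks was patchy at every scale examined. In the 9 windows of 500 kb of the left end it ran from 15.1 to 26.3% in replicate 1 and from 11.8 to 24.6% in replicate 7. In the 13 windows of the middle block it ran from 11.3 to 30.5% and from 11.1 to 31.2%. The fullest of these windows in the middle block was 12 to 12.5 Mb (30.9% ± 0.479, SD, n = 2) and the emptiest was 10.5 to 11 Mb (11.2% ± 0.104). In the left end the fullest were 1 to 1.5 Mb (24.8% ± 2.05) and 0 to 0.5 Mb (24.7% ± 0.100), which did not differ beyond their spread. The emptiest by the mean were 2.5 to 3 Mb (13.8% ± 2.85) and 0.5 to 1 Mb (14.8% ± 0.362), which did not differ beyond their spread either. In replicate 1 alone the latter was the emptiest, at 15.1% against 15.8%. The windows of 500 kb in the left end thus spanned a range inside that of the middle block in both lists.

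In windows of 100 kb the highest mean cover of the left end was at 1.9 to 2 Mb (43.7% ± 1.84, SD, n = 2), where replicate 1 had 17 peaks and replicate 7 had 24. It was followed by 4.3 to 4.4 Mb (40.1% ± 0.303) and 1 to 1.1 Mb (37.6% ± 3.94). The highest of the middle block were 12.6 to 12.7 Mb (49.6% ± 2.14), 13.2 to 13.3 Mb (49.3% ± 3.83) and 12.1 to 12.2 Mb (44.0% ± 0.0537). Windows over 40% in both lists numbered 1 of 45 in the left end and 5 of 65 in the middle block. One window in each block was free of peaks in both lists, 3.9 to 4 Mb in the left end and 12.9 to 13 Mb in the middle block.

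**Figure D4:**
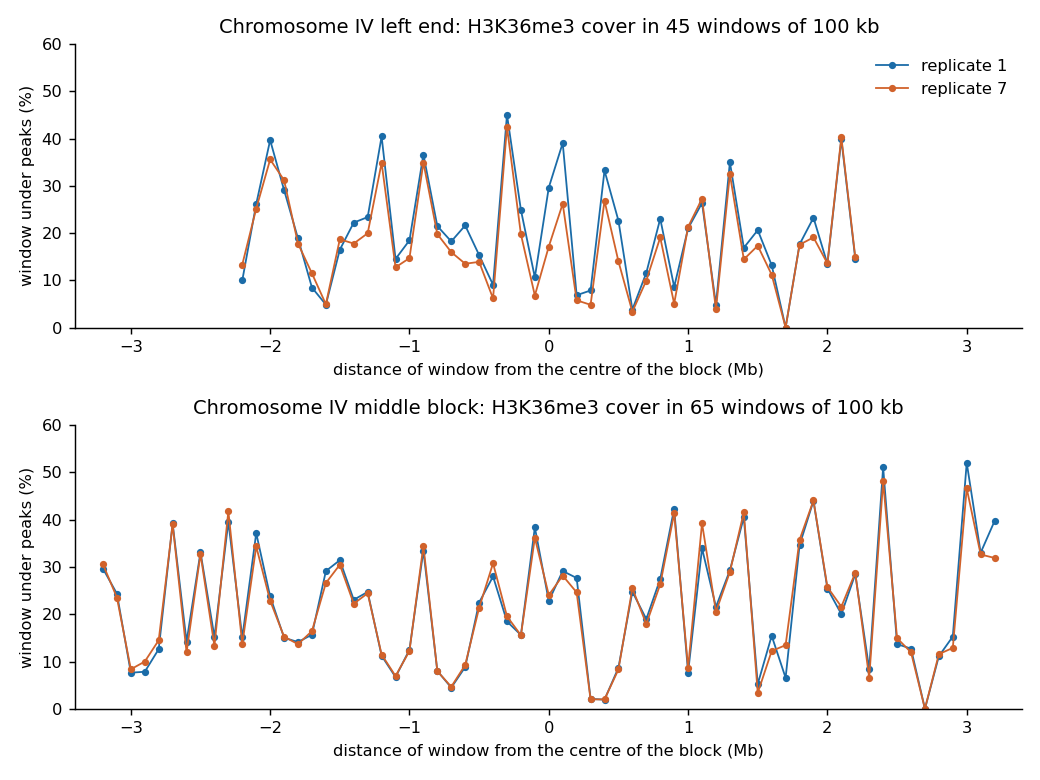
Percent of each 100 kb window under H3K36me3 peaks, by distance of the window from the centre of its block (Mb), for the left end (45 windows) and the middle block (65 windows). The lines of the replicates nearly overlap in most windows of the middle block, where differences range from -7.81 to 6.91 percentage points, while replicate 1 lies above replicate 7 in 34 of the 45 windows of the left end.

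The lower cover of replicate 7 in the left end was largest between 1 and 3 Mb. It was lower than replicate 1 in 9 of 9 windows of 500 kb, with differences from -7.08 to -0.141 percentage points, and in 34 of 45 windows of 100 kb. Another 10 of these windows were higher in replicate 7, by up to 3.36 percentage points. The difference was largest at 2 to 2.5 Mb, where replicate 1 had 22.2% and replicate 7 had 15.1%, with 44 and 45 peaks. Without that window the difference over the left end was -1.91 percentage points, against -2.48 with it. From 1 to 3 Mb, a stretch chosen after the windows had been seen, replicate 1 had 161 peaks with a median width of 1945 bp and replicate 7 had 186 with a median of 1421 bp, and the difference in cover was -4.37 percentage points. Replicate 7 was lower in the middle block in 7 of 13 windows of 500 kb and in 36 of 65 windows of 100 kb.

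The right margin of the middle block had the largest difference in cover between the replicates among its windows of 500 kb. From 13 to 13.5 Mb, next to the piRNA region that begins there, replicate 1 had 42 peaks and 30.2% cover and replicate 7 had 57 peaks and 27.1% cover, a difference of -3.12 percentage points. From 7 to 13 Mb the cover was 21.1% in replicate 1 and 21.0% in replicate 7, a difference of -0.0563 percentage points, against -0.292 for the whole block. The right margin of the middle block therefore resembled the left end in that replicate 7 had more peaks, narrower peaks (median 1673 against 2249.5 bp) and less cover. Single windows of 100 kb elsewhere in the block differed by -3.21 to 6.91 percentage points, the latter at 11.9 to 12 Mb. This stretch was singled out after its values had been seen.

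Most members had a partner in the other list, which is a peak that overlaps by at least 1 bp. Of replicate 1 peaks, 84.8% of the left end (268 of 316, exact Clopper-Pearson 95% interval 80.4 to 88.6%) and 90.7% of the middle block (410 of 452, 87.6 to 93.2%) had one, beside 89.6% of all replicate 1 peaks. Of replicate 7 peaks, 92.6% of the left end (324 of 350, 89.3 to 95.1%) and 95.6% of the middle block (431 of 451, 93.2 to 97.3%) had one, beside 94.8% of all replicate 7 peaks. These intervals reflect counting error alone, and neighbouring peaks are not independent. The whole-list share lay inside the intervals of the middle block in both lists and of the left end in replicate 7, and above that of the left end in replicate 1. In the first 4.5 Mb of chromosomes I, II, III and V the replicate 1 shares were 82.9%, 88.5%, 82.0% and 87.6%. The replicate 7 shares there were 95.1%, 94.2%, 95.9% and 88.5%. Under the stricter rule of reciprocal 50% overlap with 1 peak, the shares were 68.7% and 62% in the left end and 82.5% and 82.7% in the middle block. The share over all peaks of each list is not at hand under this rule. These values therefore compare the blocks with each other only.

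Members without a partner were narrow and low in score. The 48 of replicate 1 in the left end were 1004.5 bp wide at the median, with a median score of 89.6, and the 42 in the middle block were 1062.5 bp wide, with a median score of 78.3. The 26 and 20 of replicate 7 had median widths of 1161.5 and 1306.5 bp. In the 2 highest classes of score every member of both blocks had a partner, and the lowest class held most of those without one. In that class 48.7% (37 of 76) of left-end peaks and 53.1% (43 of 81) of middle-block peaks of replicate 1 had a partner, and 76.7% and 77.8% of those of replicate 7. The lowest class made up 24.1% and 25.7% of left-end peaks and 17.9% and 16.0% of middle-block peaks.

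The highest-scoring members without a partner lay at very different distances from the other list. Of all members without one, 19 of 48 in the left end and 13 of 42 in the middle block lay within 1000 bp of a replicate 7 peak, and 11 of 26 and 4 of 20 within 1000 bp of a replicate 1 peak. Over all of chromosome IV, 40 of 111 such peaks of replicate 1 and 17 of 60 of replicate 7 did. The share over all such peaks of each list is not at hand. In the left end the highest-scoring ones of replicate 1 were at 3055848 to 3059219, 2338948 to 2340191 and 1967557 to 1970458. They were separated from replicate 7 peaks by 300, 181 and 657 bp. Those of replicate 7 were at 762275 to 763763, 4001028 to 4003456 and 4307713 to 4309093, at 549, 12424 and 536 bp. The middle block had those of replicate 1 at 10493427 to 10495041, 12579942 to 12581220 and 7819094 to 7821119, at 452, 12605 and 3440 bp. Those of replicate 7 were at 11333112 to 11336921, 7958791 to 7960942 and 8398730 to 8400072, at 152, 4961 and 4478 bp. The peak at 4001028 to 4003456 is an isolated call of replicate 7 inside the longest gap of replicate 1 in the left end.

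Peaks of replicate 1 were divided in replicate 7 more often in the left end than in the middle block. In the left end 59 of 316 replicate 1 peaks (18.7%, 14.5 to 23.4%) overlapped 2 or more replicate 7 peaks, beside 11.2% of all peaks of that list. Of the middle block, 35 of 452 did (7.74%, 5.45 to 10.6%). The reverse, a replicate 7 peak over 2 or more replicate 1 peaks, was seen for 18 of 350 in the left end (5.14%, 3.08 to 8.01%) and 26 of 451 in the middle block (5.76%, 3.80 to 8.33%), beside 4.82% of all replicate 7 peaks. Division thus ran mainly from replicate 1 to replicate 7 in the left end and was closer to even in the middle block. Below 13 Mb the middle block had 23 of 410 replicate 1 peaks divided (5.61%) and 22 of 394 replicate 7 peaks (5.58%), and its margin from 13 to 13.5 Mb held the other 12 of 42 (28.6%) and 4 of 57 (7.02%).

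Wide peaks of replicate 1 were often divided, and those of replicate 7 less often. Of replicate 1 peaks over 5 kb, 26 of 38 in the left end (68.4%) and 24 of 74 in the middle block (32.4%) overlapped 2 or more replicate 7 peaks. Of replicate 7 peaks over 5 kb, 3 of 23 (13.04%) and 10 of 60 (16.7%) overlapped 2 or more of replicate 1. The share over all peaks of each list wider than 5 kb is not at hand, so these values compare the blocks with each other only. The 59 divided peaks of the left end were 4877 bp wide at the median, and the 133 replicate 7 peaks that met them 1610 bp. Replicate 7 peaks still covered 84.1% of the width of these 59 peaks, and 89.8% of that of the 35 in the middle block. A divided peak was in most cases met by 2 peaks (47 of 59 and 27 of 35), and by 3 or more in the rest.

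The widest members show both outcomes. The widest peak of the left end in replicate 1 was a domain of 25.2 kb at 4360676 to 4385836. Replicate 7 had 3 peaks over it, of 9.36, 9.18 and 5.47 kb, separated by 235 and 209 bp. A domain of 15.7 kb at 1310450 to 1326120 was met by 5 replicate 7 peaks, the widest of 8.25 kb, with gaps of 27 to 196 bp between them. By contrast the domain at 3032785 to 3050073 (17.3 kb) was met by 1 replicate 7 peak of 17.5 kb, at 3032859 to 3050353, which was the widest of that list in the left end. The next widest of replicate 7, at 414720 to 425598 (10.9 kb) and 4247867 to 4257978 (10.1 kb), also each had 1 partner of nearly the same extent.

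The widest replicate 1 peak of the middle block, 15.6 kb at 13273879 to 13289471, lay in the margin from 13 to 13.5 Mb and was met by 4 replicate 7 peaks that covered 82.6% of it. The next, at 10919862 to 10933108 (13.2 kb), was met by 1 replicate 7 peak of 13.5 kb, at 10919738 to 10933281, that covered it entirely. The scores of this pair were 3100 in replicate 1 and 183 in replicate 7, although the ends agreed within 200 bp. The third, at 12653217 to 12666120 (12.9 kb), was cut at another place in replicate 7, whose peak of 12.3 kb at 12657592 to 12669938 also joined the neighbour on its right. The widest replicate 7 peak, 14.8 kb at 7770747 to 7785499, went the other way, since replicate 1 had 2 peaks there, of 3.72 and 11.0 kb, with 186 bp between them.

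Where 1 peak matched 1 peak, edges shifted little at the median, yet most left-end pairs were narrower in replicate 7. The left end had 183 such pairs and the middle block 333. The median shift of the left and right edge was 91 and 109 bp in the left end and 88 and 99 bp in the middle block. The width in replicate 7 divided by that in replicate 1 had a median of 0.965 in the left end, where 114 of 183 pairs were narrower in replicate 7. It was 1.02 in the middle block, where 135 of 333 were. In the piRNA regions to the left and right of the middle block it was 0.996 and 0.992. There 44 of 82 and 41 of 76 pairs were narrower in replicate 7. The share over all such pairs of the lists is not at hand, so these values compare stretches of chromosome IV only. Both edges lay within 200 bp in 51.9% of pairs of the left end and 61.0% of those of the middle block.

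Counted in bases, the lists shared 732 kb of the left end, 75.2% of the 973 kb covered in either, and 1294 kb of the middle block, 85.1% of 1521 kb. In the left end 177 kb lay under replicate 1 alone and 65.0 kb under replicate 7 alone, a net difference of -111.6 kb. The largest part of it, -61.3 kb, was sequence at the outer ends of shared peaks. Sequence between the pieces of divided peaks contributed -27.6 kb and peaks without a partner -22.7 kb. The net difference of the middle block was -19.0 kb, with 123 kb under replicate 1 alone and 104 kb under replicate 7 alone, and the ends of shared peaks contributed 2.88 kb.

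**Figure D5:**
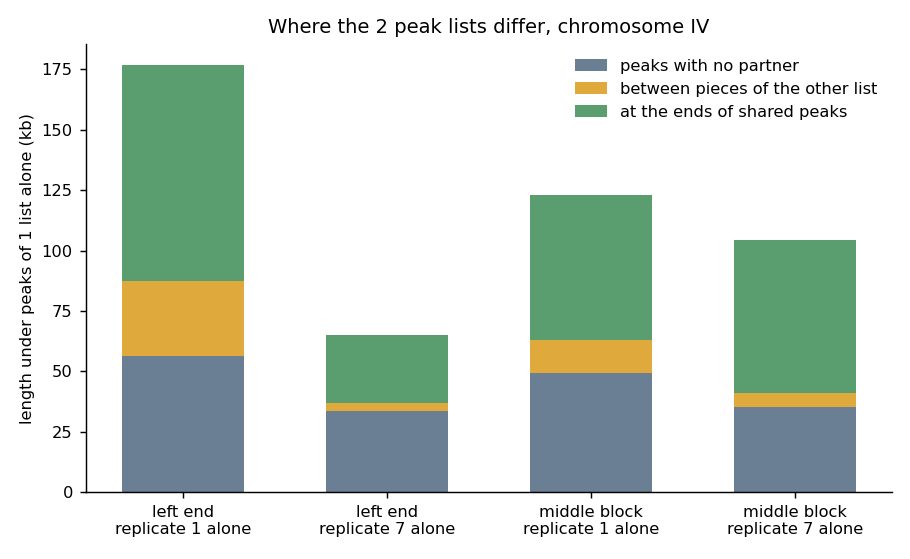
Length (kb) under peaks of 1 list alone in the left end and the middle block, divided into peaks with no partner, sequence between pieces of the other list, and the ends of shared peaks. The bar of replicate 1 alone in the left end (177 kb) is well above that of replicate 7 alone (65.0 kb), whereas the bars of the middle block are 123 and 104 kb.

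Long stretches without peaks matched closely in the middle block and less so in the left end. The 3 longest gaps of the middle block were the same in both within 200 bp at each end, at 12859848 to 13032217, 10563872 to 10695122 and 9528373 to 9644288 in replicate 1. Stretches free in both lists were 172.3, 131.2 and 115.7 kb long there. In the left end the longest such stretches were 127.1 kb (3873970 to 4001027), 104.2 kb (658033 to 762274) and 102.4 kb (2390561 to 2492932). The longest single gap was 141.9 kb in replicate 1 (3873970 to 4015880) and 127.1 kb in replicate 7 (3873954 to 4001027). The second longest of replicate 1, 119.5 kb at 448573 to 568059, was broken by replicate 7 peaks over 2.18% of its length. The third longest of replicate 7, 103.0 kb at 3403855 to 3506898, was broken by replicate 1 peaks over 1.06% of its length. Stretches over 50 kb free in both lists numbered 21 in the left end and 20 in the longer middle block, and took up 34.1% and 22.5% of their length. Such stretches may hold the mark at levels that the authors' peak calling did not report.

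The right end, from 17.2 Mb to the last peak end at 17467594, is only 0.268 Mb long. It had 15 peaks in replicate 1 and 13 in replicate 7, which covered 15.4% and 14.0% of it, and 13 of 15 and 13 of 13 had a partner. The widest was 7.53 kb in replicate 1 (17250092 to 17257616) and 7.66 kb in replicate 7 (17249988 to 17257650). The longest gap was 45.4 kb in replicate 1 (17204734 to 17250091) and 74.3 kb in replicate 7 (17383446 to 17457727). Peaks were spaced more widely than in the larger blocks, with median gaps of 8637.5 and 8495 bp over 14 and 12 gaps.

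At the block edges, the nearest left-end midpoint lay 30.8 kb below 4.5 Mb in both lists, and the nearest outside it 9.54 and 9.64 kb above. At 7 Mb the nearest member lay 14.7 kb above in both lists, and the nearest outside it 83.0 kb below in replicate 1 and 24.99 kb below in replicate 7. At 13.5 Mb the peaks ran on across the edge, with the nearest members 1.73 and 0.850 kb below it and the nearest outside 0.959 and 1.09 kb above. At 17.2 Mb a peak crossed the edge in each list and was counted outside, its midpoint 0.205 kb below, and the nearest members lay 3.61 and 4.15 kb above. No peak spanned any of the other edges.

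Differences between the replicates like those of the left end were found at the same positions of other autosomes. In the first 4.5 Mb of chromosomes I, II, III and V, 16.7%, 16.5%, 16.9% and 16.6% of replicate 1 peaks were divided in this sense, near the 18.7% of chromosome IV. Cover in replicate 7 was 0.855, 0.914, 0.871 and 0.969 of that in replicate 1, and 0.877 on chromosome IV. The median width in replicate 7 was 0.811, 0.893, 0.847 and 0.794 of that in replicate 1, and 0.769 on chromosome IV. On the X the corresponding values were 4.60% divided, a ratio of cover of 1.01 and a ratio of widths of 1.09. Between 7 and 13.5 Mb the share of divided replicate 1 peaks was 7.74% on chromosome IV, between the 4.48% of chromosome V and the 10.9%, 11.9% and 13.7% of chromosomes I, II and III. Cover of the first 4.5 Mb was not alike. In replicate 1 it was 29.1%, 13.3%, 24.6% and 8.44% on chromosomes I, II, III and V, beside 20.2% on chromosome IV. On chromosomes II, III and V it was lower than between 7 and 13.5 Mb in both lists. Chromosome I went this way in replicate 7 (24.8 and 25.4%), but not in replicate 1 (29.1 and 26.2%). The X did so in neither list. These positions fall differently along chromosomes of different length, and the differences between chromosomes were not tested. Depth is unknown from the peak lists, and its part in the differences between the replicates was not tested.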

How the data were processed

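Each of the 2 immunoprecipitated samples has 1 deposited peak list in WormBase WS190 coordinates, per the file headers, called on that sample alone. Each peak carries a score that the authors deposited, with no stated scale, used here only for ranks and filters inside 1 list. The names of the lists and of their peaks carry MACS, whereas the source column reads MA2C, so the files name the peak caller inconsistently. BWA is named in the submitters' processing notes. No setting or read depth was at hand, and no version beyond what the names of the lists carry. Per the labels' protocols, fragments of 250 to 500 bp were amplified with 18 cycles of PCR. The input samples entered through the authors' peak calling alone.

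Peaks were placed by midpoint. Covered share is the percentage of a block under peaks, cut at the block edges. The right end stops at the last peak end in either list. Partners overlap by at least 1 bp. Gaps are between neighbouring peaks of the same block. Shares have exact Clopper-Pearson 95% intervals. Named regions are, per list and block, the 3 widest peaks, the 3 highest-scoring without a partner and the 3 longest gaps, then the fullest and emptiest 100 kb windows and the longest stretches free in both lists. Members, blocks and rules were chosen with earlier results of these data known. Alternatives were the upper 50% of peaks by score, joining within 500 bp, blocks shortened by 250 kb, equal numbers of peaks (990), whole peaks by midpoint, other overlap rules and each replicate left out. Keeping peaks of 1500 bp or more and leaving out 13 to 13.5 Mb were added after seeing the data. Calculations used Python 3.11.15, numpy 2.4.6, pandas 2.3.3, scipy 1.17.1 and matplotlib 3.10.9. The interval code was tested on simulated data against base-by-base counts, with 0 mismatches in 20 pairs of lists. The available gene table is on another assembly and was not used.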

Additional observations from a re-analysis of the deposited data

How the results depend on the processing

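Values are means over the 2 lists. With the upper 50% of peaks by score, cover was 12.4% in the left end and 16.2% in the middle block, and the ratio of left end to middle block was 0.766 in cover, 0.971 in median width, 0.761 in peaks per Mb and 1.46 in median gap; the last 2 reversed from 1.07 and 0.711. Keeping peaks of 1500 bp or more gave 15.4% and 19.98% cover and ratios of 0.772, 0.985, 0.789 and 1.22, with the same 2 reversals. Joining peaks within 500 bp reversed the ratio of densities to 0.956 and gave a ratio of gaps of 0.807 and a middle-block cover of 22.0%. Shortened blocks gave 20.8% cover in the middle block and a ratio of gaps of 0.623. Without 13 to 13.5 Mb these were 21.1% and 0.580. Reciprocal 50% overlap gave partners to 65.3% of left-end and 82.6% of middle-block peaks, with no whole-list share at hand. Apart from the effects of dropping or joining peaks, the cause was not tested. The ratio of cover was below 1 under all 9 alternatives run, at 0.766 to 0.926. These are not independent checks, since they include each list alone, whose ratios make up the mean. Placing whole peaks by midpoint could not change the ratio, because no peak crossed an edge of these blocks. Leaving out each replicate gave ratios of 0.823 to 0.926 in cover, 1.01 to 1.12 in density, 0.630 to 0.844 in width and 0.649 to 0.772 in gap, cover of 17.7 to 20.2% and 21.5 to 21.8%, and partner shares of 84.8 to 92.6% and 90.7 to 95.6%. No paired analysis was possible because peak lists exist here for only 1 group of samples; the blocks were compared within each list, by their ratio. With no read counts, sequence below the authors' threshold cannot be compared.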
